A study of Mus musculus with 6 samples.

Results

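Metabotropic glutamate receptors (mGluRs) were examined as 7 genes, Grm2, Grm3, Grm4, Grm5, Grm6, Grm7 and Grm8, taken by gene symbol from the expression tables. All 7 were among the 24421 genes listed in each of the 6 libraries, and 6 of the 7 were among the 18413 genes tested. The study asked how loss of the transcription factor Sox9 alters gene expression in astrocytes of the adult mouse olfactory bulb. Bulbs of 3 control and 3 Sox9 KO mice, male adults of the C57BL/6 strain, had been injected with AAV-GFAP-iCre-P2a-TurboRFP, so control mice also carried Cre and the red fluorescent protein TurboRFP. The GFAP promoter drives the construct in astrocytes and can also be active in other GFAP-expressing cells. Sox9 KO mice were Sox9fl/fl. The labels call the controls WT and the protocol calls them C57BL/6J. TurboRFP-positive cells were sorted 4 weeks after injection, and total RNA of each mouse was sequenced as 1 library, so the libraries were treated as separate animals.

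mGluRs are G protein-coupled receptors that sense glutamate through a large extracellular domain and work as dimers. Group I receptors, represented here by Grm5, act through Gq to activate phospholipase C and release calcium from internal stores. Group II receptors (Grm2 and Grm3) and group III receptors (Grm4, Grm6, Grm7 and Grm8) act through Gi/o and lower cyclic AMP. Grm3 is the main mGluR of adult astrocytes, Grm5 is the receptor best known for calcium responses of young astrocytes, and several group II and III receptors sit on axon terminals, where they restrain transmitter release. Grm6 is best known from the ON bipolar cells of the retina.

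The promoters of the most abundant and the least abundant member are shown because they mark the ends of the expression range described below. Promoter sequences were from RefSeq (GRCm38.p6), which held 8 promoters for 5 of the 7 members, Grm2, Grm3, Grm6, Grm7 and Grm8. Each window of 300 bases, from 250 bases before to 50 after the transcript start, was searched on both strands for ACAAT and ACAAAG, the core letters bound by SOX proteins. The 250 bases before the start are printed 5′ to 3′ on the strand of the gene, with matches in capitals, where CTTTGT and ATTGT are ACAAAG and ACAAT on the other strand.
Grm3, chr5:9725353-9725602, minus strand: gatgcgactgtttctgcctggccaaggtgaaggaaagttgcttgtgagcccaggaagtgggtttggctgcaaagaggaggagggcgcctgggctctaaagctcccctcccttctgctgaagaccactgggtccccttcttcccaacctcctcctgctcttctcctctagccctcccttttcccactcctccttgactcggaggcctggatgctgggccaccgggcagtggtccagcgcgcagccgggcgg
Grm6, chr11:50850435-50850684, plus strand: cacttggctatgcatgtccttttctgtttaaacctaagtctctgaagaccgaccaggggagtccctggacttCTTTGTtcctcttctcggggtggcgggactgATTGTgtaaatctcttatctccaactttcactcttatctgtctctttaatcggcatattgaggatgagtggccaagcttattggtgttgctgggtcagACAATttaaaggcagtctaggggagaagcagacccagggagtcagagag

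The Grm3 window held neither motif and had a GC content of 63.7%. By contrast, the Grm6 window had a GC content of 49.7% and held 2 matches to ACAAT and 1 to ACAAAG. Over the members, 2 of 8 promoters held a match, the other being the third Grm8 promoter, whereas 42.9% of all 32851 mouse promoters of that length held one (31.0% for ACAAT and 18.7% for ACAAAG). The Grm7 windows overlap each other, so the 8 promoters are not independent. The median GC content of all promoters was 52.7%, and the part of base content in these shares was not tested. The matches describe letters in a short window and say nothing of binding.

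Sox9 itself was measured first as a check of the genotype. Its normalized count was 5185, 6562 and 4921 in the controls, listed here and below in the order of their replicate numbers, and 52.6, 64.3 and 57.7 in KO, a fall of 93.4-fold (95% confidence interval (CI) 74.4 to 117). Normalized counts are reads per gene divided by a size factor for each library, and all levels below are on that scale unless stated otherwise. Reads on genes ranged from 18242129 to 86906527 per library, and 1 read was worth 0.395 to 1.58 normalized counts. A gene was called lower or higher in KO where limma, a linear model fitted across all genes, gave a Benjamini-Hochberg adjusted p under 0.05 and a change of at least 1.5-fold.

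The sorted cells are labelled olfactory bulb astrocytes, and markers of several cell types moved together with genotype. The summed level of 10 astrocyte markers was 253270 to 286059 in controls and 24434 to 26398 in KO, and 10 of 10 were called lower. The 10 microglia and macrophage markers went the other way, from between 184549 and 211359 in controls to between 755448 and 893095 in KO, and 10 of 10 were called higher. In KO libraries this sum was thus above that of the astrocyte markers, and in controls below it. Levels of 12 neuron markers summed to between 18531 and 24994 in controls and between 2754 and 4933 in KO, with 11 of 12 called lower. The 8 oligodendrocyte precursor markers summed to between 9358 and 9689 in controls and between 893 and 1370 in KO, with 8 of 8 called lower. Calls of lower expression were made for 7 of 8 oligodendrocyte markers, 7 of 8 olfactory ensheathing cell markers, 6 of 8 endothelial and mural cell markers (1 was higher) and 5 of 9 tested markers of mitral and tufted cells, the output neurons of the bulb. No marker on these 8 lists was at 0 in every library, but Lhx5, Nts and Tbx21 of the mitral and tufted cell list had only 2, 9 and 33 reads in all. Sox10, Slc17a6 and Slc17a7 each sit on more than 1 list, so the counts of the lists are not fully separate. In sorted bulk RNA, fewer cells of a type and less RNA per cell cannot be told apart. The part of cell composition in the fall of Sox9 and in the receptor results was not tested.

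**Figure D1:**
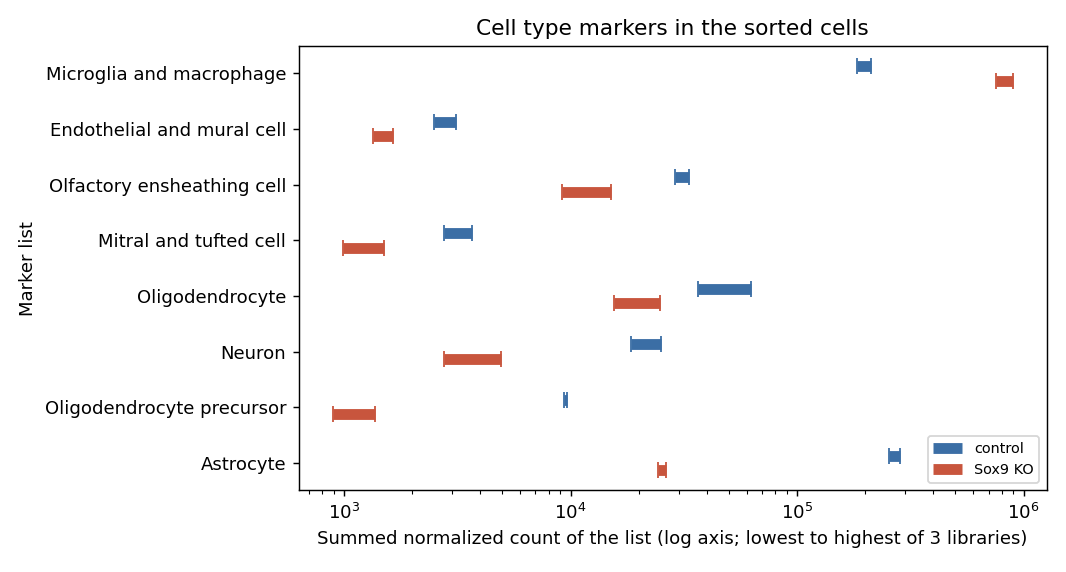
Summed normalized counts (log axis) of 8 lists of cell type markers, with each bar running from the lowest to the highest of 3 libraries (blue, control; red, Sox9 KO). Astrocyte markers fell to 0.0930 of their control sum, while microglia and macrophage markers rose to 4.22 times theirs, and no list overlapped between groups.

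In normalized counts, messenger RNA of all 6 tested mGluRs was lower in Sox9 KO libraries than in controls, by 2.65-fold for Grm7 to 19.6-fold for Grm4. Scaled to astrocyte markers, which moved the median log2 change of all genes to 3.70, Grm5 and Grm7 were instead called higher, and Grm2 and Grm8 had values above 0 without a call. Summed over the 7 genes, the normalized count was 4011, 3450 and 4134 in controls and 262, 513 and 359 in KO, a ratio of 10.2. In each of the 6 genes every KO library lay below every control library. Each of them was called lower. Over all genes tested, 28.8% were called lower and 22.2% higher, and 34.7% had every KO library below every control. The median log2 change was -3.24 over the 6 receptors and -0.07 over all genes. Of all calls, 56.4% were lower as deposited, compared with 43.2% after quantile normalization and 67.8% after scaling to equal totals, which moved the median of all genes by 0.27 and -0.23.

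**Figure D2:**
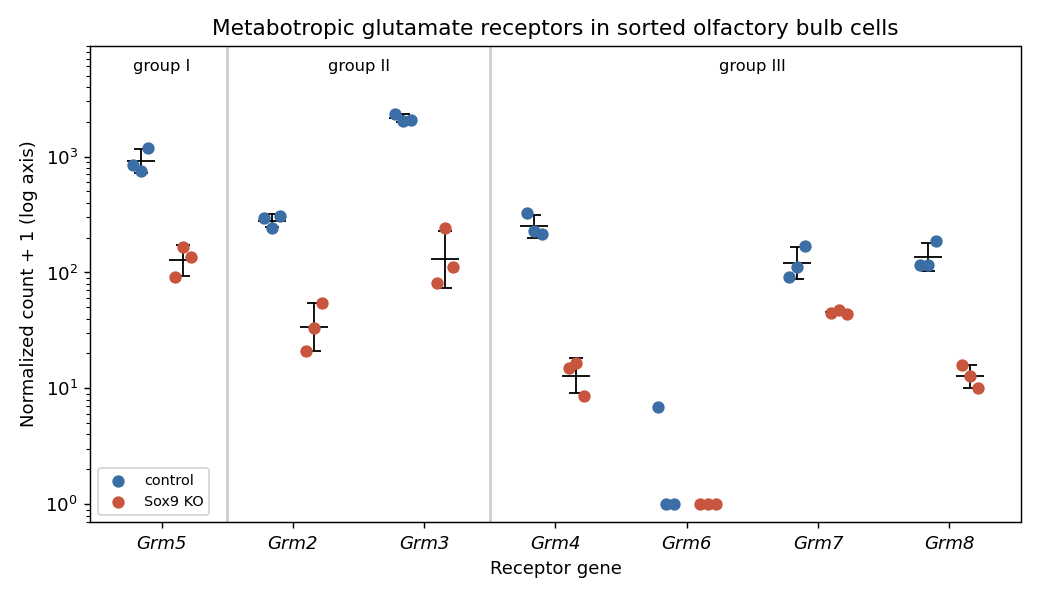
Normalized count plus 1 (log axis) of each mGluR in 3 control (blue) and 3 Sox9 KO (red) libraries, with the geometric mean and SD as bars except for Grm6. Red points lie below blue points for every gene but Grm6, which had reads only in control replicate 1.

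Among group I and II receptors, Grm3, the glial group II receptor, was the most abundant member and fell the most. Grm3 (ENSMUSG00000003974, chr5:9485541-9725170, minus strand, mm10) measured 2332, 2017 and 2073 in controls and 79.4, 241 and 111 in KO. The highest KO library, replicate 2, was thus 3.03 times the lowest, and all stayed far below the controls. The fall was 16.5-fold (95% CI 10.1 to 27.1, log2 change -4.04 ± 0.32 SE, limma adjusted p = 1.9e-06), and only 2.08% of tested genes had a lower log2 change.

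Grm2, the other group II receptor, is chiefly neuronal. Grm2 (ENSMUSG00000023192, chr9:106643095-106656082, minus strand) measured 295, 239 and 309 in controls and 19.9, 32.4 and 53.2 in KO. KO libraries spread 2.68-fold around a low level while controls stayed within 1.29-fold. Its level fell 8.36-fold (95% CI 4.92 to 14.2, limma adjusted p = 2.3e-05).

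Grm5, which couples to Gq, came after Grm3 in normalized counts. Grm5 (ENSMUSG00000049583, chr7:87584168-88134907, plus strand) measured 849, 744 and 1184 in controls and 90.3, 166 and 135 in KO. The highest KO value lay far below the lowest control, and controls spanned 1.59-fold. The difference was 7.12-fold (95% CI 4.89 to 10.4, log2 change -2.83 ± 0.24 SE, limma adjusted p = 3.4e-06).

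Group III receptors spanned the extremes of the family. Grm4 (ENSMUSG00000063239, chr17:27422387-27521403, minus strand) encodes a presynaptic receptor and measured 323, 226 and 213 in controls and 13.9, 15.4 and 7.60 in KO. These KO values rested on 14, 39 and 5 reads, and 5 reads carry an exact Poisson 95% interval of 1.62 to 11.7 reads, which covers counting error only. Even the upper end of that interval, 17.7 normalized counts, lay below every control. Grm4 fell 19.6-fold (95% CI 11.4 to 33.6, limma adjusted p = 2.3e-06), and 1.41% of tested genes had a lower log2 change.

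Grm8 (ENSMUSG00000024211, chr6:27275119-28135178, minus strand), a further presynaptic autoreceptor, measured 115, 115 and 188 in controls and 14.9, 11.8 and 9.11 in KO. The KO libraries held 15, 30 and 6 reads, and their levels were far below the lowest control. The fall came to 10.7-fold (95% CI 6.16 to 18.7, limma adjusted p = 1.5e-05). An exon of Grm8 also holds the microRNA gene Mir592 on the same strand.

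Grm7 stood at the other end. Its product has low affinity for glutamate and sits in the active zone of nerve terminals. Grm7 (ENSMUSG00000056755, chr6:110645581-111567230, plus strand) measured 90.6, 109 and 169 in controls and 43.7, 46.6 and 42.5 in KO. Controls spanned 1.86-fold, KO libraries only 1.10-fold, and the groups did not overlap. The fall was 2.65-fold (95% CI 1.67 to 4.20, log2 change -1.40 ± 0.30 SE, limma adjusted p = 0.0021), and 23.0% of tested genes had a lower log2 change. After quantile normalization the log2 change was -0.59 and the call was lost (limma adjusted p = 0.12), while the adjusted p lay between 6.2e-05 and 0.012 under the other settings tried without marker scaling (limma, edgeR or DESeq2).

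Grm6 (ENSMUSG00000000617, chr11:50850685-50866208, plus strand) was close to undetected. It had 4 reads in control replicate 1, or 5.85 normalized counts, and 0 in the other 5 libraries. A count of 0 allows up to 3 reads, which is worth 2.06 and 4.73 normalized counts in the other controls and 1.18 to 4.56 in KO libraries. Its mean was under 1 normalized count, so it was not tested, and a change was not detectable at this depth. Annotated antisense genes overlap exons of Grm2, Grm6 and Grm7. Whether counting used strand is not stated by the labels or methods, so reads of these genes and of their antisense partners cannot be told apart.

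Levels were then compared between genes as normalized counts per kilobase of merged exons, since the merged exons range from 3.05 kb in Grm3 to 10.2 kb in Grm5. In controls Grm3 led with 702 ± 55.2 per kilobase (SD, n = 3), 7.77 times the next gene. Grm5 followed with 90.3 ± 22.4, then Grm2 with 57.4 ± 7.59 and Grm4 with 42.5 ± 10.1. Grm2 and Grm4 overlapped between libraries, and so did Grm7 (20.9 ± 6.92) and Grm8 (14.1 ± 4.22), so these neighbours were not ordered beyond their spread. All other neighbours in controls were separated. The exon annotation used for counting is not stated, so these lengths may not match it. Undivided, the control means were 2141 for Grm3 and 926 for Grm5.

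In KO the order per kilobase changed in the middle. Grm3 (47.1 ± 28.1 per kilobase, SD, n = 3) and Grm5 (12.7 ± 3.70) were again on top. Grm7 (7.52 ± 0.35) came next and overlapped Grm2 (7.18 ± 3.44) between libraries. Grm4 (2.06 ± 0.69) and Grm8 (1.21 ± 0.29) were lower than Grm2 in every KO library and overlapped each other. The remaining neighbours were separated.

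The make-up of the family was compared as the share of each gene in that sum. Grm3 supplied 77.2%, 77.7% and 72.2% of the summed level per kilobase in controls and 51.9%, 69.6% and 52.1% in KO. Grm5 supplied 8.37%, 8.53% and 12.3% in controls and 17.6%, 14.3% and 18.9% in KO. Grm7 supplied 1.55%, 2.18% and 3.04% in controls and 14.8%, 6.98% and 10.3% in KO. In these 3 genes the groups did not overlap, and the mean share differed by -17.9, 7.19 and 8.44 percentage points. An exact two-sided permutation test gave p = 0.10 for each, the smallest that 3 against 3 libraries allow, and 0.233 after Benjamini-Hochberg adjustment over the 7 shares. Shares of Grm2 (6.18% and 9.82%), Grm4 (4.56% and 2.91%) and Grm8 (1.52% and 1.79%) overlapped between groups. Shares in a library add up to a fixed total, so a lower share of Grm3 by itself raises those of the others. The differences for Grm3, Grm5 and Grm7 are therefore not separate results.

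**Figure D3:**
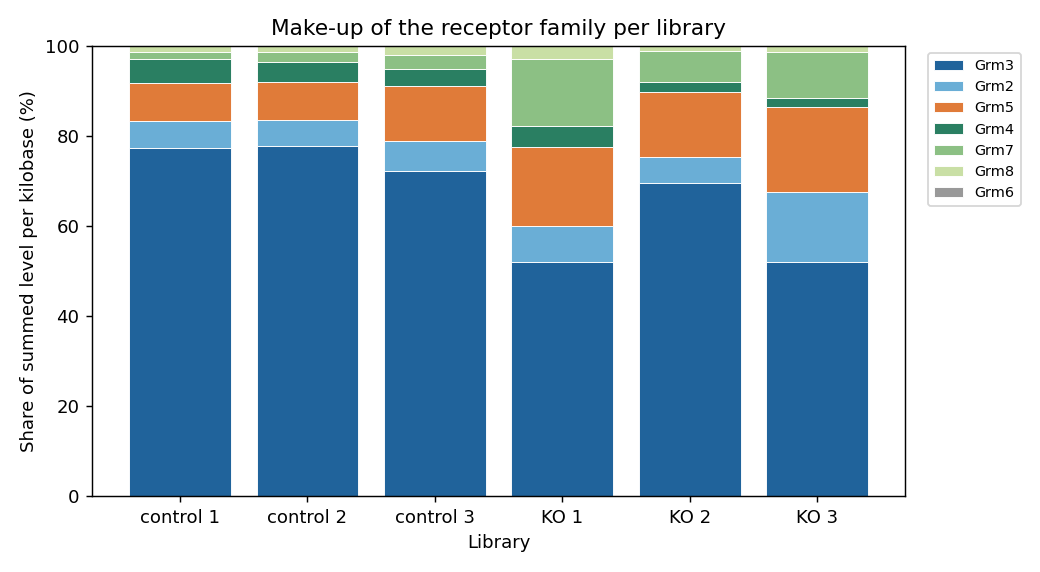
Share of each mGluR in the summed level per kilobase (%), stacked to 100% for each of 3 control and 3 Sox9 KO libraries. Grm3 (dark blue) took 72.2% to 77.7% in controls and 51.9% to 69.6% in KO, while Grm7 (light green) took 1.55% to 3.04% and 6.98% to 14.8%.

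By receptor group, group II made up 81.9% of the sum per kilobase in controls (78.9% to 83.5%) and 67.7% in KO (60.0% to 75.4%). Group III accounted for 8.37% (7.99% to 8.84%) and 15.4% (10.3% to 22.4%). These shares are tied to the same fixed total, so a lower share of group II by itself raises that of group III. In normalized counts, the ratio of control to KO was 13.5 for group II, 7.10 for group I and 7.56 for group III.

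Because astrocyte and neuron markers fell as well, the receptors were also expressed relative to each marker list, a scaling chosen after the data had been seen. It centres every library on the mean log2 level of the list, which moved the median log2 change of all genes from -0.07 to 3.70 for astrocyte markers and to 2.35 for neuron markers. Relative to astrocyte markers, the log2 change was -0.20 for Grm3 (95% CI -0.84 to 0.44, limma adjusted p = 0.53) and -0.55 for Grm4 (95% CI -1.38 to 0.27, limma adjusted p = 0.19). Both intervals include 0, which does not show that these genes and the markers fell alike. Values for Grm8 (0.32, limma adjusted p = 0.48) and Grm2 (0.74, limma adjusted p = 0.055) were not called either. Grm5 (1.01, limma adjusted p = 0.0019) and Grm7 (2.42, limma adjusted p = 1.8e-05) were called higher, so that their direction was opposite to that in the normalized counts. Thus 0 members were called lower and 2 higher on that scale, where 1.13% of all genes were called lower and 83% higher. A higher call was thus the common outcome, and all 6 members lay below the median gene.

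Relative to neuron markers, 3 members were called lower and 1 higher, on a scale where 5.63% of all genes were called lower and 71.5% higher. The log2 change was -1.57 for Grm3 (limma adjusted p = 7.5e-07), -1.90 for Grm4 (limma adjusted p = 4.1e-05) and -1.03 for Grm8 (limma adjusted p = 0.044). Grm5 (-0.36, limma adjusted p = 0.32) and Grm2 (-0.61, limma adjusted p = 0.15) were not called. Grm7 was called higher (1.06, limma adjusted p = 0.017), as most genes were on that scale, and lay below the median gene at 2.35. Such a scaling shifts all genes by about the same amount and leaves the order of the members as it was.

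**Figure D4:**
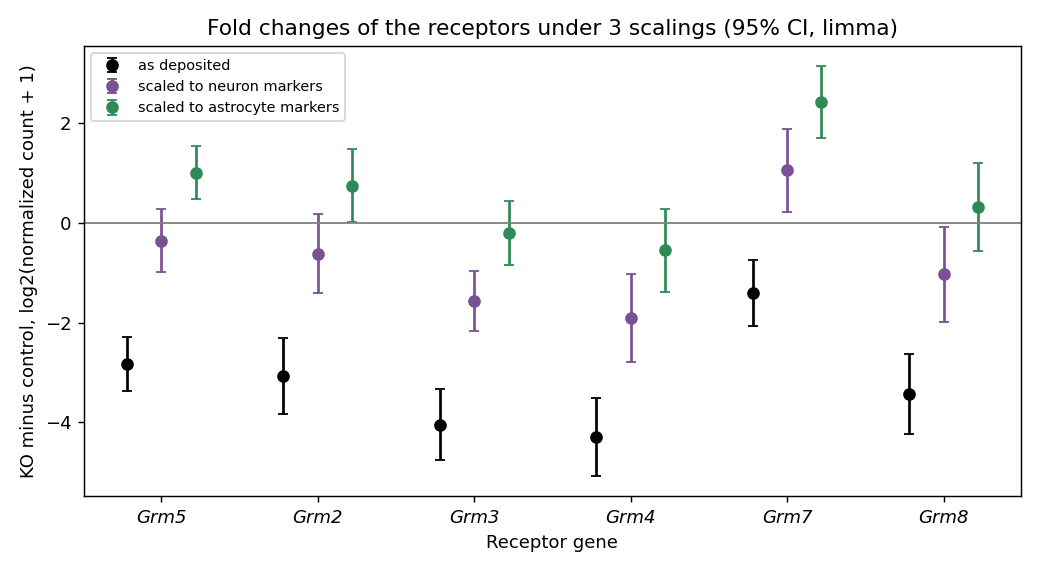
Change of each tested mGluR (KO minus control, log2(normalized count + 1)) with 95% CI from limma, as deposited (black), scaled to neuron markers (purple) and scaled to astrocyte markers (green). All 6 black points lie below 0, whereas relative to astrocyte markers Grm2, Grm5, Grm7 and Grm8 lie above 0 (only Grm5 and Grm7 called) and Grm3 and Grm4 below, on a scale where the median of all genes is 3.70.

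The profiles most like the leading receptors were sought among 11925 other genes with a mean of at least 100 normalized counts, by the root mean square (RMS) difference of log2 profiles over the 6 libraries, each centred on its control mean. For Grm3 these included Gpr75 (RMS 0.13) and Celsr2 (0.16), and 247 genes lay within 0.5. For Grm5 they were Trank1 (0.12), Pitpnm3 (0.12) and Lrrc7 (0.14), with 702 genes within 0.5. In the nearest profile to Grm3, Gpr75 measured 541, 436 and 542 in controls and 16.9, 47.4 and 25.8 in KO. Its highest KO library was replicate 2 as in Grm3, which the choice by similarity over these libraries favours.

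Signalling genes downstream of the receptors moved in both directions, as tested genes did in general (28.8% called lower and 22.2% higher). In the Gq arm, which holds the G proteins, phospholipases, calcium release channels, kinases and scaffolds used by Grm5, 11 of 19 genes were called lower and 3 higher, with a median log2 change of -1.27. Plcb1, a phospholipase C that Gq activates, measured 1771, 1217 and 1590 in controls and 153, 298 and 228 in KO (6.88-fold lower, limma adjusted p = 2.6e-06). Homer2, a scaffold that ties group I receptors to calcium stores, was 6.58-fold lower (limma adjusted p = 3.3e-07). In contrast Prkcb, a protein kinase C also abundant in immune cells, measured 5747, 6082 and 5898 in controls and 18012, 19187 and 16118 in KO, a log2 change of 1.59 (limma adjusted p = 1.9e-07). Prkca, a related kinase, was 1.71-fold lower (limma adjusted p = 0.00031). Gnaq, the Gq subunit, had a log2 change of 0.58 (limma adjusted p = 0.0010) but did not reach 1.5-fold, and the calcium release channel Itpr2 was not called (0.10, limma adjusted p = 0.36).

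In the Gi/o arm, which serves group II and III receptors, 8 of 14 genes were called lower and 2 higher (median log2 change -1.42). Gnao1, the most abundant Gi/o subunit of neural cells, measured 15869, 14801 and 14507 in controls and 792, 1009 and 905 in KO. That is a 16.7-fold fall (limma adjusted p = 3.8e-09). Adcy2, one of the adenylyl cyclases, was 15.7-fold lower (limma adjusted p = 1.9e-07). Adcy7, a cyclase also prominent in blood-derived cells, went from 1353, 1058 and 1031 to 5539, 5132 and 4723 (log2 change 2.17, limma adjusted p = 1.5e-07). Among the other inhibitory subunits, Gnai2 (log2 change 0.19, limma adjusted p = 0.088) and Gnai3 (0.45, limma adjusted p = 0.0040) were not called. Gnai1 (5.98-fold lower, limma adjusted p = 1.9e-06) and Gnaz (5.09-fold lower, limma adjusted p = 7e-05) were called lower.

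Of 16 receptor regulators (receptor kinases, arrestins, RGS proteins and binding partners), 7 were called lower and 4 higher, with a median log2 change of -0.57. Rgs7, which speeds the turn-off of Gi/o, fell 12.8-fold (limma adjusted p = 5.9e-08), and Grip1, a PDZ scaffold, fell 8.26-fold (limma adjusted p = 5.9e-05). Rgs2, which restrains Gq, was higher in every KO library, at 22137, 22225 and 23402 against 6592, 5888 and 5786 (log2 change 1.89, limma adjusted p = 5.0e-08). Arrb2, an arrestin, had a log2 change of 1.34 (limma adjusted p = 7.5e-07), while Arrb1, its relative, was not called at -0.44 (limma adjusted p = 0.0058) and the receptor kinase gene Adrbk2 fell 1.68-fold (limma adjusted p = 0.00053).

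Extracellular and membrane partners of group III receptors followed. Of 6 listed, 5 were tested, 3 were called lower and 0 higher (median log2 change -2.46). Elfn2, a postsynaptic adhesion protein that binds group III receptors across the synapse, measured 428, 352 and 386 in controls and 40.7, 101 and 38.0 in KO (7.06-fold lower, limma adjusted p = 4.5e-05). Elfn1, its relative, was 5.51-fold lower (limma adjusted p = 7.4e-05). Gpr179, which acts beside Grm6 in retinal bipolar cells, was 6.78-fold lower (limma adjusted p = 5.6e-06), and Trpm1, the channel that Grm6 controls there, was not called (log2 change -1.38, limma adjusted p = 0.053). Beside these counts stand the shares over all genes, 28.8% called lower and 22.2% higher.

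**Figure D5:**
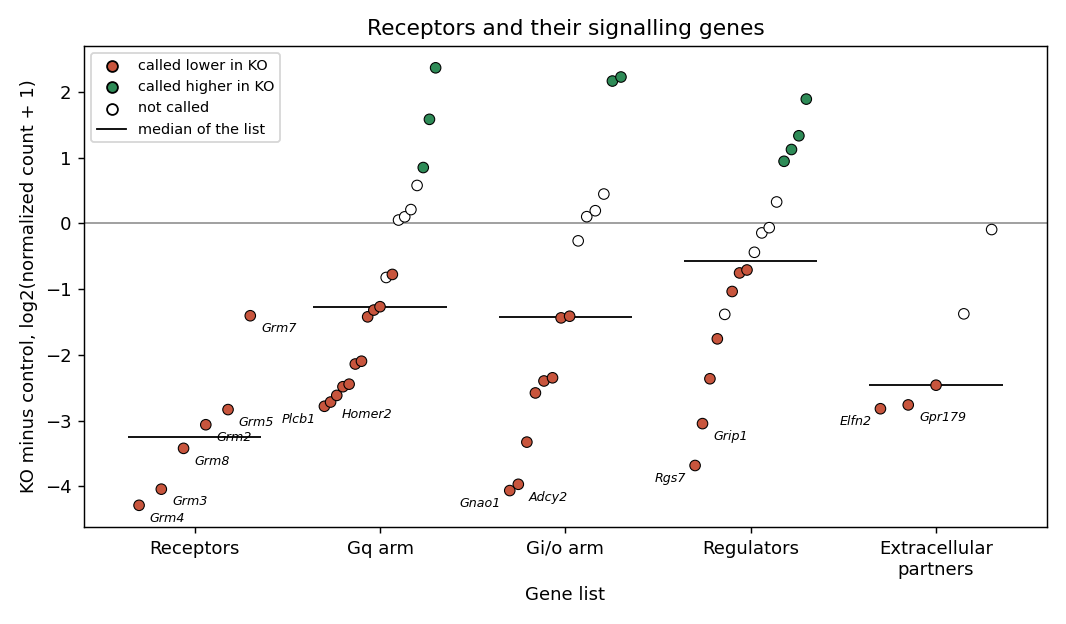
Change (KO minus control, log2(normalized count + 1)) of each tested mGluR and of each tested gene on 4 lists of signalling genes, as deposited, with calls by limma coloured and the list median as a line. The 6 receptors are all called lower (median -3.24), whereas the Gq arm, the Gi/o arm and the regulators hold calls in both directions. So do all tested genes, with 28.8% called lower and 22.2% higher.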

How the data were processed

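Total RNA of TurboRFP-positive cells was sequenced in 6 libraries. The authors mapped reads to mm10 with STAR 2.5.0a, counted reads on genes (GenomicAlignments, GenomicFeatures) and used DESeq2 1.20.0 for normalization, per the labels and methods. The deposited signal values are named RPM, but 100% of them in each library were whole multiples of 1 step within 0.01 read, so each is a number of reads over the size factor of its library, called a normalized count. Depth was 18242129 to 86906527 reads on genes, and intervals and floors (3 reads) cover counting error only. No column was left unused.

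The 18413 genes with a mean of at least 1 were compared on log2(normalized count + 1) using limma 3.58.1 (R 4.3.3) and a variance trend, with two-sided p-values and Benjamini-Hochberg adjustment over all of them. Fold changes are on that scale, which understates the change of low genes. A gene was called at an adjusted p of 0.05 and 1.5-fold. On the recovered reads, edgeR 4.0.16 called 5000 genes lower and 4340 higher, and DESeq2 1.42.0 called 5100 and 3994, against 5299 and 4090 by limma. Scripts were tested on simulated data with 199 genes changed by a log2 of 1 in either direction. There limma recovered 94 of them at an adjusted p under 0.05 and made 16 false calls. Far fewer genes changed in the simulation than were called here. The limma test had been planned for values in RPM and its numbers were kept.

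Coordinates and exon lengths were from GENCODE (mm10). The members, the 4 signalling lists and the 8 marker lists came from general knowledge and were chosen with earlier results of these data known. Named from each signalling list were the 4 genes with the highest mean and the 2 with the largest change. Gna11, Gnai1 and Gnaz were added so that every G protein gene of the Gq and Gi/o arms was named. Receptor kinases appear under their older symbols. The 3 profiles nearest to Grm3 and to Grm5 were sought, and 1 of them is not reported here. Other pseudocounts, filters, scalings, tools and thresholds and leaving out each library were tried.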

Additional observations from a re-analysis of the deposited data

How the results depend on the processing

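All 6 tested receptors had a negative log2 change under each alternative setting of the deposited values (pseudocount, filter, scaling, variance trend, replicate block, edgeR, DESeq2, unadjusted p, and each library left out), and 107 of 108 such values kept their call. The exception was Grm7 after quantile normalization (log2 change -0.59, limma adjusted p = 0.12). Changing the filter, variance trend, replicate block or p adjustment leaves the log2 change as it was by construction, so those signs could not differ. Using the unadjusted p also cannot lose a call. With library by library omission the log2 change ranged from -4.47 to -4.00 for Grm4, from -4.49 to -3.70 for Grm3 and from -1.60 to -1.15 for Grm7, and 6 of 6 stayed called lower each time.

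Scaling to marker lists, chosen after seeing the data, changed the count. With astrocyte markers, 0 members were called lower and 2 higher (1.13% and 83% of all genes), and Grm2 (0.74), Grm5 (1.01), Grm7 (2.42) and Grm8 (0.32) turned to positive log2 changes. With neuron markers, 3 were called lower and 1 higher (5.63% and 71.5% of all genes), and Grm7 turned to 1.06. By construction these scalings moved the median of all genes to 3.70 and 2.35. The share of Grm8 differed by 0.27 percentage points, by -0.071 when reads were not divided by length, and by -0.33 to 0.64 with 1 library omitted, the negative end being reached without KO replicate 1.

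Replicate numbers are shared only by name. After each gene's group mean was subtracted, the deviations of same-numbered control and KO libraries correlated at -0.05, -0.01 and -0.01. With the replicate block 6 members were called lower, as without it.

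Depth limits the low members, since Grm4 and Grm8 rest on 5 and 6 reads in KO replicate 3 and Grm6 on 4 reads in all.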
